A study of Mus musculus with 6 samples.

Results

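A set of 9 genes of platelet purinergic, thrombin, prostanoid and G-protein signalling was described in RNA of sorted megakaryocyte progenitors from fetal liver and adult bone marrow. They were the receptor genes P2ry12, P2ry1, P2rx1, F2r, F2rl2, Tbxa2r and Ptger3, the regulator gene Rgs18 and the G-protein subunit gene Gng11. Members were chosen by name, with earlier results of these data known. Every probe set that the platform annotation assigned to exactly 1 gene symbol, that of a member, was used. This gave 9 genes with 14 probe sets, of 18193 named genes and 45037 probe sets on the array, and 5 of the 9 genes had several probe sets. All cells came from C57BL/6 mice of the GATA1s genotype, in which the transcription factor GATA1 is made only in its amino-terminally shortened form. The first group was bone marrow from adults aged 12 to 18 weeks (3 arrays), and the other was fetal liver of E13.5 embryos (3 arrays). Cells of both groups were sorted as lin-, Sca-1-, c-kit+, CD150+ and CD41+. No cells with full-length GATA1 were analysed here, so no value can be set against normal progenitors, and the age of the animals and the tissue cannot be told apart. The labels name biological replicates without saying how many animals gave each. The p-values therefore rest on the spread among the 6 samples as labelled. Since all values are levels in bulk RNA, fewer cells of a type and less RNA per cell cannot be told apart.

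Platelets are activated by soluble agonists that act on receptors in their membrane. ADP released from dense granules acts on 2 G-protein-coupled receptors, the products of P2ry1, which couples to Gq and raises calcium, and P2ry12, which couples to Gi and lowers cyclic AMP, while ATP opens the cation channel encoded by P2rx1. Thrombin cleaves protease-activated receptors, thromboxane acts on the product of Tbxa2r, and prostaglandin E lowers cyclic AMP through the product of Ptger3. RGS proteins such as the product of Rgs18 speed the hydrolysis of GTP on G-protein alpha subunits and so end the signal, and Gng11 encodes a gamma subunit of the G-protein heterotrimer. Many genes of this kind are expressed during megakaryocyte maturation and their products pass to the platelets. Which thrombin receptors platelets use differs between human and mouse, as given below for F2r and F2rl2.

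Of the 9 genes, 3 rose and 1 fell in fetal liver relative to bone marrow, and the other 5 did not pass the test. P2rx1 (2.45-fold), Gng11 (1.65-fold) and F2r (1.26-fold) were higher in fetal liver, and Tbxa2r was 2.36-fold lower. The test was limma on log2 signals over 11645 genes, with Benjamini-Hochberg adjustment and a threshold of 0.05. Among all genes tested 36.1% were called, 17.8% higher and 18.3% lower, so the members' share of 44.4% lay near that of the array as a whole. The median log2 fold change of the members, fetal liver minus bone marrow as everywhere below, was 0.11, against 0.04 over all genes. The arrays of one tissue lay wholly above those of the other for 4 of the 9 members and for 50.5% of all genes. Taken probe set by probe set, 7 of the 14 were called, 6 higher and 1 lower, against 26.8% of the 27022 probe sets tested, 11.8% higher and 15.0% lower. The tissues did not overlap for 7 of the 14 and for 43.0% of all probe sets. All 14 probe sets passed the filter on low signal, and the lowest signal of any on any array was 45.7, above the filter at 22.9 and above the level of unspiked bacterial control probe sets, 10.6.

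**Figure D1:**
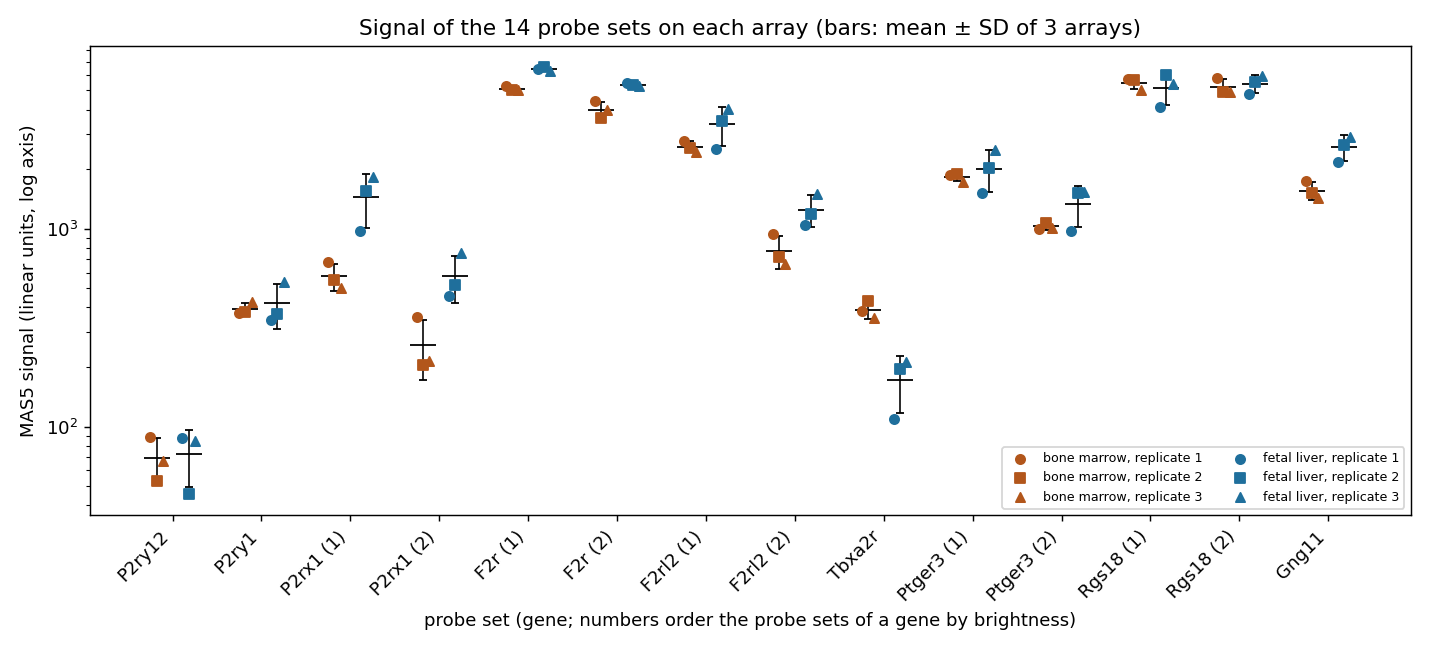
MAS5 signal of the 14 probe sets on each of the 6 arrays, on a log axis; points are arrays, shaped by replicate, and bars give the mean ± SD of the 3 arrays of a tissue. The fetal liver arrays lie wholly above bone marrow for P2rx1, F2r, Gng11 and the dimmer F2rl2 probe set, and wholly below for Tbxa2r.

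The ADP receptor genes differed between the tissues by less than the spread between arrays. P2ry12, whose product is the target of the antiplatelet thienopyridines, had signals of 88.9, 52.9 and 66.8 on bone marrow replicates 1 to 3. On the fetal liver replicates it had 87.8, 45.7 and 84.5. The groups overlapped fully, and the lowest array of all was fetal liver replicate 2. The log2 fold change was 0.04 ± 0.34 (SE, n = 3 each), with a 95% interval from -0.72 to 0.79 and a limma adjusted p of 0.942. P2ry1 had 374, 380 and 424 in bone marrow and 344, 372 and 540 in fetal liver. Fetal liver replicate 3 was the highest and replicate 1 the lowest of the 6. Its log2 fold change was 0.07 ± 0.19, with a 95% interval from -0.35 to 0.48 (limma adjusted p = 0.803).

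P2rx1, the ATP-gated channel gene, rose most of all members. Its brighter probe set had signals of 677, 550 and 501 in bone marrow and of 970, 1544 and 1824 in fetal liver. Every fetal liver array lay above every bone marrow array, although fetal liver replicate 1 stood nearer to bone marrow than the others did. The log2 fold change was 1.29 ± 0.22 (SE, n = 3 each, limma adjusted p = 0.00191). The dimmer probe set had 360, 205 and 213 in bone marrow against 457, 519 and 751 in fetal liver. It was called in the same direction, at 1.17 ± 0.25 (limma adjusted p = 0.00795 over all probe sets). P2rx1 kept its direction and call under all 18 alternative settings, with log2 fold changes from 1.10 to 1.63.

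Tbxa2r, the thromboxane receptor gene, was the member that fell. Its single probe set had 382, 433 and 355 in bone marrow and 109, 194 and 211 in fetal liver. The groups did not overlap, and fetal liver replicate 1 was the lowest array. The log2 fold change was -1.24 ± 0.25 (limma adjusted p = 0.00471), and without fetal liver replicate 1 it was -0.94 (adjusted p = 0.00293). Over the 18 settings it ran from -1.41 to -0.90 and was called in each.

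The sequences before the annotated starts of these 2 genes are shown because they moved furthest, in opposite directions. They are the 250 bases upstream of each start, 5′ to 3′ on the gene's strand, from RefSeq on GRCm38.p6. P2rx1 lies at chr11:72998895-72999144 on the plus strand. Tbxa2r has 2 annotated starts, with windows at chr10:81328018-81328267 and chr10:81328453-81328702, both on the plus strand. Capitals mark matches on either strand to letters read by GATA factors (AGATAA or AGATAG or TGATAA or TGATAG), ETS factors (AGGAAA or AGGAAG or CGGAAA or CGGAAG) or RUNX factors (TGTGGT or TGCGGT), families that act in megakaryocytes.
P2rx1: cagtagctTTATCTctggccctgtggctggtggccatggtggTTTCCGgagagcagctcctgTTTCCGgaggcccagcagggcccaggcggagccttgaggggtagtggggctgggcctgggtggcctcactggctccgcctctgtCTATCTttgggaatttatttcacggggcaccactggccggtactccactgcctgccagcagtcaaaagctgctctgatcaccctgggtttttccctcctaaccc
Tbxa2r start 1: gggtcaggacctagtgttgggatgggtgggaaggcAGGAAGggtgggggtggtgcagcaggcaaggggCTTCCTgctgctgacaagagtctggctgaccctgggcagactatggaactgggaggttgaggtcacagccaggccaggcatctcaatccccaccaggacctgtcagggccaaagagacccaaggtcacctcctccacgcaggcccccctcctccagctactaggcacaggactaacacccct
Tbxa2r start 2: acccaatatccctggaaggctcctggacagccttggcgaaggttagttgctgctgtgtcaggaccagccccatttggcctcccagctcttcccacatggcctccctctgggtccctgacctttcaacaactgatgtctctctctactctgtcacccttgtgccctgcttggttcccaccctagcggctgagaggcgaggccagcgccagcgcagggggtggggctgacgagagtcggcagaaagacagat
The P2rx1 window held 2 GATA matches, 242 and 104 bases before the start, and 2 ETS matches, 208 and 188 bases before it. The first Tbxa2r window held 2 ETS matches and no GATA match, and the second held none of the 3 motifs. These letters are common: of 32851 annotated windows of the same length, 26.5% held a GATA match, 57.2% an ETS match and 18.6% a RUNX match. A match is a description of the letters and not a bound site.

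Of the thrombin receptor genes, F2r rose on both probe sets and F2rl2 rose on 1 of 2. F2r encodes the protease-activated receptor that thrombin cleaves in human platelets, and F2rl2 encodes the one that serves as thrombin's cofactor on mouse platelets, where the product of F2rl3 carries the signal. F2r had signals of 5250, 5000 and 5010 in bone marrow and of 6381, 6548 and 6237 in fetal liver on its brighter probe set. The arrays were tight within each tissue and did not overlap, so a small difference passed the test, with a log2 fold change of 0.33 ± 0.06 (SE, n = 3 each, limma adjusted p = 0.00400). Its other probe set had 4410, 3622 and 3965 against 5482, 5297 and 5239, a log2 fold change of 0.42 ± 0.09 (limma adjusted p = 0.00610 over all probe sets). In the fit over all probe sets the brighter one lost its call without the variance trend (0.33, limma adjusted p = 0.0634). Both probe sets carry the suffix that Affymetrix gives where probes may match more than the named transcript. The size for F2r depended on the scaling, at 0.24 under quantile normalization and 0.67 under median centring. With median centring the middle gene of the array stood at 0.38 in place of 0.04, and F2r lay 0.29 above it.

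F2rl2 gave different calls on its 2 probe sets. The brighter had 2792, 2570 and 2447 in bone marrow and 2540, 3520 and 4040 in fetal liver. Fetal liver replicate 1 lay among the bone marrow arrays and the other replicates lay above them, and the log2 fold change of 0.35 ± 0.15 did not pass (limma adjusted p = 0.109, 95% interval 0.00016 to 0.69). Without fetal liver replicate 1 it was 0.54 (limma adjusted p = 0.00302). The dimmer probe set, of a class designed with probes that may cross-hybridise, had 935, 718 and 661 against 1050, 1189 and 1501. These groups did not overlap, and it was called at 0.69 ± 0.17 (limma adjusted p = 0.0147 over all probe sets). That call was lost without bone marrow replicate 2 (0.65, adjusted p = 0.0526) or 3 (0.59, 0.0650), and without fetal liver replicate 3 (0.55, 0.0618). The mean of both probe sets gave 0.52 (limma adjusted p = 0.0273).

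F2r and F2rl2 are neighbours on chromosome 13 with a single protein-coding gene, Iqgap2, between them in the RefSeq table. Their windows of 250 bases are shown because the 2 genes share a locus. F2r lies at chr13:95618467-95618716 on the minus strand and F2rl2 at chr13:95696670-95696919 on the plus strand, with capitals as above.
F2r: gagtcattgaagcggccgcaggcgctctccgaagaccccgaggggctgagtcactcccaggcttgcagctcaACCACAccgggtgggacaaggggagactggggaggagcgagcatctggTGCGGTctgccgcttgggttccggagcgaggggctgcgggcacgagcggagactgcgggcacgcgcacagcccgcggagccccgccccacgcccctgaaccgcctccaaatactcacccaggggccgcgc
F2rl2: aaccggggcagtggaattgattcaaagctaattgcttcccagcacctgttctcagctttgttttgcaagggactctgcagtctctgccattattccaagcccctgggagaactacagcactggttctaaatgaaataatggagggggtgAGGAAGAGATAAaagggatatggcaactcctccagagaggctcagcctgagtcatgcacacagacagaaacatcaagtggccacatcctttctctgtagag
The windows differed in content. That of F2r was rich in G and C (70.8%) and held 2 RUNX matches and no GATA or ETS match, while that of F2rl2 (48.4%) held an ETS match directly followed by a GATA match, 101 and 95 bases before the start, and no RUNX match. Over the 8 windows of the 7 members found in the RefSeq sequence table, 2 held a GATA match and 4 an ETS match. Iqgap2, named after its value was seen, had a log2 fold change of -0.08 ± 0.09 (limma adjusted p = 0.480).

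Ptger3, the prostaglandin E receptor gene, did not pass the test on either probe set. The brighter had 1871, 1892 and 1725 in bone marrow and 1524, 2035 and 2486 in fetal liver. Fetal liver replicate 1 was the lowest and replicate 3 the highest of the 6 arrays, and the log2 fold change was 0.11 ± 0.16 (limma adjusted p = 0.620, 95% interval -0.25 to 0.47). The dimmer had 1000 (999.9), 1073 and 1013 against 976, 1512 and 1529, at 0.35 ± 0.17 (limma adjusted p = 0.158 over all probe sets). Without fetal liver replicate 1 this dimmer probe set was called, at 0.56 (adjusted p = 0.00477), while the brighter was at 0.30 (adjusted p = 0.0641 over genes).

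Of the 2 members that act at the G protein itself, Gng11 rose and Rgs18 did not pass the test. Gng11, a gamma subunit gene, had signals of 1735, 1510 and 1425 in bone marrow and of 2165, 2644 and 2923 in fetal liver. All fetal liver arrays lay above all bone marrow arrays, and the log2 fold change was 0.72 ± 0.13 (SE, n = 3 each, limma adjusted p = 0.00230). It was called under all 18 settings, from 0.63 to 1.06. Rgs18, whose product restrains Gq and Gi signalling in platelets, had 5720, 5669 and 5037 in bone marrow and 4137, 5964 and 5400 in fetal liver on its brighter probe set. The groups overlapped and the log2 fold change was -0.10 ± 0.13 (limma adjusted p = 0.584, 95% interval -0.39 to 0.19). Its other probe set had 5755, 4913 and 4919 against 4785, 5508 and 5917, at 0.06 ± 0.10 (limma adjusted p = 0.727 over all probe sets). The sign of the Rgs18 value was not settled, since it was 0.24 under median centring and ran from -0.14 to 0.05 when 1 array was left out. In that range the other probe set became the brightest without bone marrow replicate 2 or 3 or fetal liver replicate 2. The probe set that was brightest with all arrays ran from -0.21 to 0.05 in the fit over all probe sets. Rgs1 and Rgs2, which lie near Rgs18 in the RefSeq table, with Rgs21 nearest to it, and encode other RGS proteins, both fell.

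**Figure D2:**
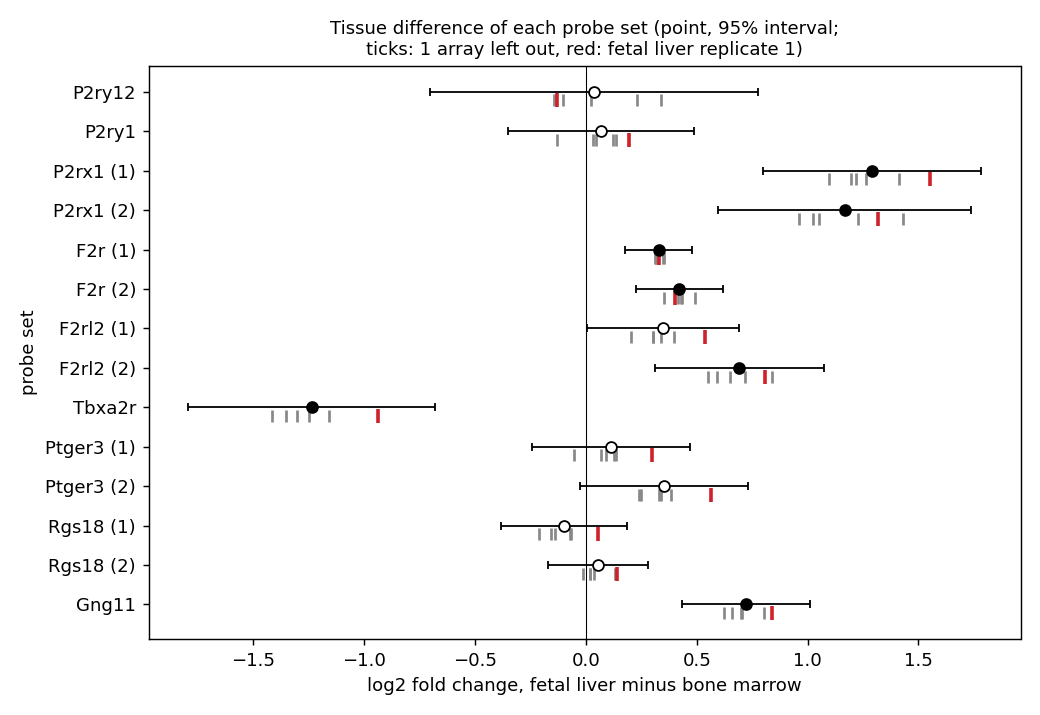
Log2 fold change of each probe set, fetal liver minus bone marrow, with its 95% interval from the fit over 27022 probe sets; filled points passed at an adjusted p of 0.05, grey ticks leave out 1 array each and red ticks leave out fetal liver replicate 1. P2rx1 sits highest at 1.29, Tbxa2r lowest at -1.24, and the red tick is the rightmost grey or red tick for P2ry1, Gng11, Tbxa2r, the brighter probe sets of P2rx1 and F2rl2 and both of Ptger3 and of Rgs18.

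Fetal liver replicate 1 stood below the other fetal liver arrays for most members. On this array 8 of the 9 genes lay below the mean of the other fetal liver arrays and 7 were the lowest of the 3, with a median of -0.46 log2 units. Over all genes 49.4% lay below on this array. Bone marrow replicate 3 likewise had 8 of 9 members below the mean of its fellow arrays and 6 lowest of the 3, by a smaller median of -0.13. On fetal liver replicate 1 the median over all genes was 0.00396 and their 5th percentile -0.58, a level passed by P2rx1 (-0.79) and Tbxa2r (-0.89). P2ry12 was the exception, at 0.50 above. The 16 tested megakaryocyte and platelet markers also lay lower there, by a median of -0.87, and their summed signal was 31976 against 54371 and 52778 on replicates 2 and 3. Whether this had a part in the members' values was not tested. Without that array 5 of the 9 members were called, F2rl2 in addition to the other 4, while the number of genes called on the array went from 4208 to 4477.

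**Figure D3:**
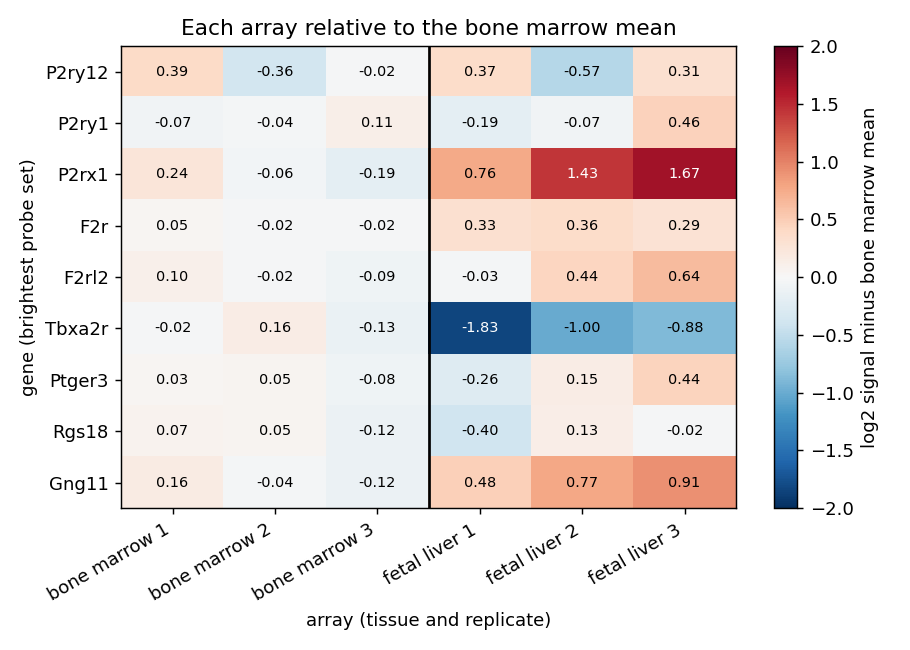
Log2 signal of the brightest probe set of each gene on each array, minus the mean of its bone marrow arrays; red is above and blue below. Within fetal liver the column of replicate 1 is the lowest for 7 of the 9 genes, and F2r varies least, between 0.29 and 0.36.

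Markers of several blood cell types were much lower in fetal liver, and their part in the members' results was not tested. Of 16 tested granulocyte and monocyte markers all were lower in fetal liver, with summed signals of 61947 to 81704 in bone marrow and 7390 to 9240 in fetal liver. S100a9 fell from 12555 ± 1579 to 448 ± 285, and S100a8 from 10310.4 ± 1328 to 145 ± 85.1. All 7 macrophage markers fell (2214 to 2676 against 327 to 441), and the brightest, Csf1r and Cd68, were at log2 fold changes of -3.48 and -1.54. All 5 mast cell and basophil markers fell (3962 to 5155 against 231 to 346), among them Fcer1a, at least 218-fold, and Hdc. Lymphoid markers fell in 6 of 7 cases (7018 to 8106 against 2206 to 2323), with Nkg7 lower and Cd79b, at a log2 fold change of -0.23, not called. Among 10 erythroid markers 4 fell and 1 rose (18644 to 29859 against 15432 to 17543), with Car1 lower and Car2 at -0.01. Tbxa2r fell, as did all or most called markers of these lists, though 5 of the 10 erythroid markers were not called. Over all genes 17.8% were called higher and 18.3% lower. Of 6 endothelial markers 3 rose and none fell (3850 to 4540 against 4976 to 6883), with Tek higher and Tie1 at 0.38, and of 5 hepatoblast markers 2 rose, among them Dlk1, and 2 fell, among them Krt18 (1833 to 2047 against 1469 to 2212). P2rx1, F2r and Gng11 rose, as did the called markers of the endothelial list and most called markers of the megakaryocyte list below. In fetal liver the group means of Mmp8, Vcam1, Cd79a, Mcpt8 and Fcer1a lay below the control level, and no marker's mean did so in bone marrow.

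Of 18 listed megakaryocyte markers 16 were tested. None had a group mean below the control level, nor did any of the erythroid, endothelial and hepatoblast lists. All had passed the filter, which lies above that level, so this does not show that each was present in both tissues. In fetal liver 6 rose (37.5%) and 1 fell (6.25%), against 17.8% and 18.3% of all genes. Summed signals ran from 34069 to 40657 in bone marrow and from 31976 to 54371 in fetal liver. The widest changes were opposed. Tubb1 rose from 228 ± 24.5 to 2568 ± 1015 and Selp fell from 2958 ± 271 to 340 ± 161, both named after their values were seen. Pf4, a chemokine of platelet alpha granules, had a log2 fold change of -0.16 ± 0.14 (limma adjusted p = 0.405), and Clec1b, a platelet activating receptor, rose (0.90 ± 0.26, adjusted p = 0.0244).

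Other genes of the pathway were taken from 9 lists with 152 genes, of which 140 were on the array and 113 passed the filter. In fetal liver 15 rose (13.3%) and 31 fell (27.4%), against 17.8% and 18.3% of all genes, with a median log2 fold change of -0.08. That split depended on the scaling. Under median centring 40 of the 113 were called higher and 19 lower, against 5377 higher and 1348 lower of all 11645 genes.

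Receptors beyond the members were mostly lower where they were called. Of 7 tested purinergic receptors and ectonucleotidases, 1 rose (14.3%) and 3 fell (42.9%), against 17.8% and 18.3% of all genes. P2rx5, a further ATP-gated channel gene, was at least 6.23-fold higher in fetal liver (limma adjusted p = 0.00125), and 2 of its 3 bone marrow signals were under the control level. P2rx7, the channel of large ATP-induced pores in immune cells, fell from 204 ± 8.37 to 71.3 ± 12.8 (limma adjusted p = 5.46e-04). P2ry14, the UDP-glucose receptor gene, fell by 0.82 on the log2 scale and P2rx4 fell by 0.46, with limma adjusted p of 0.0282 and 0.0462. P2ry14 lost the call without bone marrow replicate 1 or 3 or fetal liver replicate 1 or 2 (adjusted p up to 0.116), under quantile normalization (-0.53, 0.101) and under median centring (-0.48, 0.114), and P2rx4 was past the threshold in 6 of 18 settings, losing the call without any array other than fetal liver replicate 1 (adjusted p up to 0.149), and at -0.13 under median centring (0.547). P2ry14 and Gpr171 lie close to P2ry12 in the RefSeq table, and Gpr171, named after its value was seen, fell from 1779 ± 229 to 1151 ± 98.0 (limma adjusted p = 0.00414).

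Among 8 thrombin and prostanoid receptor genes and thrombin cofactors, 1 rose (12.5%) and 3 fell (37.5%), against 17.8% and 18.3% of all genes. The prostaglandin E receptor genes that raise cyclic AMP moved in opposite directions: Ptger2 rose from 135 ± 57.8 to 406 ± 53.8 (log2 fold change 1.68 ± 0.32) and Ptger4 fell from 2098 ± 269 to 1008 ± 325 (-1.10 ± 0.21). Procr, the endothelial protein C receptor gene, and Thbd, the thrombomodulin gene, were at -1.61 ± 0.35 and -0.79 ± 0.22. The Thbd call was lost without bone marrow replicate 3 or fetal liver replicate 2 or 3 (limma adjusted p from 0.0670 to 0.0728), under median centring (-0.45, 0.0789) and without the variance trend (0.0633). F2rl3, the signalling thrombin receptor gene of mouse platelets, had a log2 fold change of 0.47 and was not called (limma adjusted p = 0.134). Of 5 other platelet G-protein-coupled receptor genes 3 fell (60%, against 18.3% of all genes) and none rose. Cxcr4, the chemokine receptor that holds cells in the marrow, fell from 4623 ± 218 to 747 ± 93.3 (log2 fold change -2.64 ± 0.11, limma adjusted p = 9.16e-07), with Lpar6 at -1.18 ± 0.13 and S1pr4 at -1.27 ± 0.26.

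Among other G-protein subunit genes Gnaz rose and 3 beta or gamma genes fell, against 36.1% of all genes called in either direction. Of 11 alpha subunit genes 1 rose and none fell. Gnaz, the alpha subunit that couples adrenaline receptors in platelets, rose from 2326 ± 200.4 to 4327 ± 1018 (log2 fold change 0.87 ± 0.16, limma adjusted p = 0.00313), and Gnaq, the subunit through which the P2ry1 and Tbxa2r products signal, was at 0.03 (adjusted p = 0.835). Of 9 other beta and gamma subunit genes none rose and 3 fell, Gng12 (-0.71 ± 0.10), Gng2 (-0.91 ± 0.26) and Gnb4 (-0.44 ± 0.13), so Gng11 was the sole gamma gene tested here that was called higher. The Gng2 call was lost without bone marrow replicate 2 or 3 (limma adjusted p = 0.0648 and 0.0824), and the Gnb4 call without any array other than fetal liver replicate 1 (adjusted p up to 0.0970). Both were also lost under median centring (Gng2 -0.57, limma adjusted p = 0.0830; Gnb4 -0.11, 0.526) and without the variance trend (0.0681 and 0.0763).

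Of 13 tested RGS and receptor kinase or arrestin genes 1 rose (7.69%) and 4 fell (30.8%), against 17.8% and 18.3% of all genes. Grk3, a kinase that desensitises receptors, fell from 1955 ± 88.8 to 641 ± 190 (limma adjusted p = 1.39e-04), and Rgs1 and Rgs2 fell by 1.81 and 1.90 on the log2 scale (adjusted p = 0.00739 and 0.00952). Their fetal liver signals had wide spreads, 2196 ± 1462 and 1416 ± 980. Arrb1, a beta-arrestin gene, rose (0.50 ± 0.13), but not without bone marrow replicate 3 (0.49, limma adjusted p = 0.0522).

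Downstream, calcium and protein kinase C genes gave 1 rise (5.26%) and 7 falls (36.8%) in 19, against 17.8% and 18.3% of all genes. Their median log2 fold change was -0.06. Prkcq, a protein kinase C isoform present in platelets, rose from 2601 ± 169 to 4212 ± 670, while Prkch fell from 1297 ± 144 to 393 ± 45.1, Prkcb from 881 ± 290 to 168 ± 45.9 and Plcb1 from 338 ± 47.7 to 113 ± 23.5. Atp2a3, a calcium pump gene that lies beside P2rx1 in the RefSeq table, was named after its value was seen and fell by 0.46 on the log2 scale (limma adjusted p = 0.00611).

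Genes of integrin activation and of inhibitory pathways were called in both directions. Pik3cb, a phosphoinositide kinase isoform used by platelets, rose from 730.1 ± 27.3 to 1279 ± 154, Rasa3, a brake on Rap1, from 1970.1 ± 85.0 to 2636 ± 256, and Rasgrp2, the calcium-sensing activator of Rap1 in platelets, from 1151 ± 149 to 1956 ± 509. The Rasgrp2 call was lost without fetal liver replicate 2, where another probe set became the brightest (log2 fold change 0.20, limma adjusted p = 0.531). Rasgrp1 was at least 11.3-fold lower with all 3 fetal liver arrays below the control level, and Pik3r5 was at -1.59 ± 0.37. Of 19 cyclic nucleotide genes 6 rose and 3 fell, a larger share of rises (31.6%) than over all genes (17.8%), though the difference between these shares was not tested. The phosphodiesterase gene Pde3b rose from 324 ± 10.7 to 987 ± 133, Mrvi1, a target of cyclic GMP-dependent kinase, from 1298 ± 244 to 3917 ± 1339, and the guanylate cyclase gene Gucy1a1 from 4285 ± 234 to 6171 ± 550.3. Pde2a, Adcy6 and Prkacb fell by 1.42, 0.52 and 0.31 on the log2 scale, but Adcy6 and Prkacb lost the call under median centring and Prkacb also with the mean of its probe sets.

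**Figure D4:**
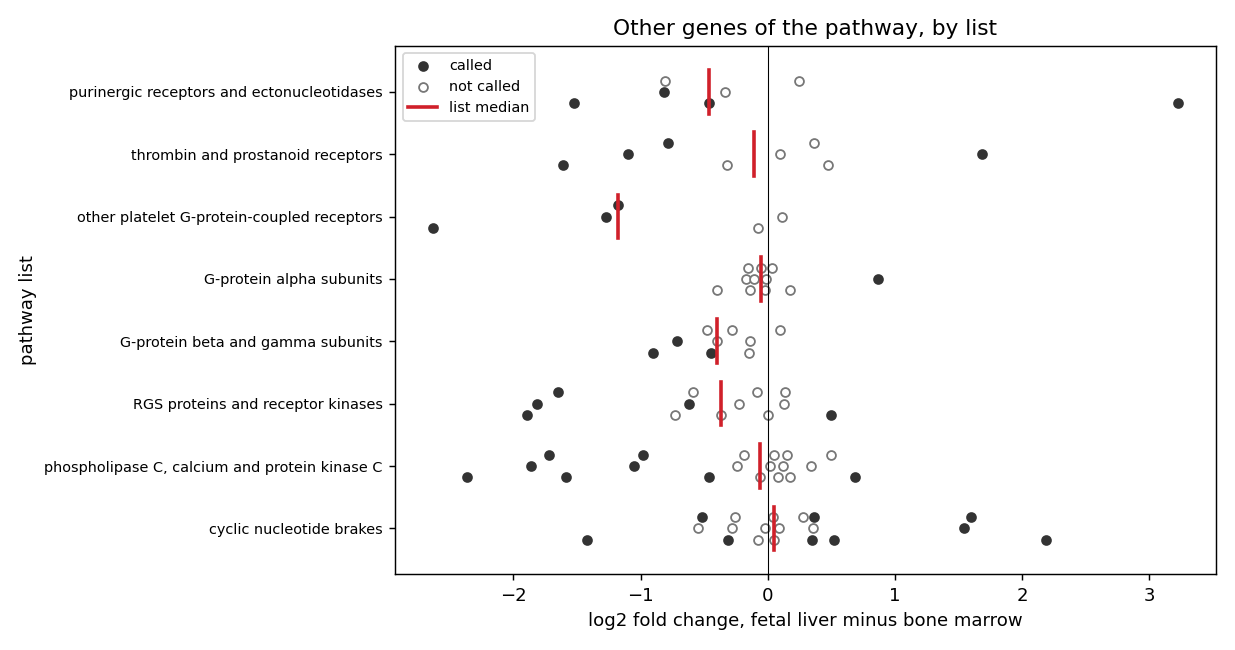
Log2 fold change of each tested gene in 8 of the 9 pathway lists, fetal liver minus bone marrow; filled points passed at an adjusted p of 0.05 and red bars are list medians. The G-protein alpha subunits cluster near 0 with Gnaz apart at 0.87, and the other platelet receptors have the lowest median, -1.18.

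P2rx1 and Tbxa2r passed the test with a log2 fold change of at least 1. The genes most like them were found by the root mean square difference of log2 signals over the 6 arrays. Each gene was first centred on its own mean, and genes with clone, model or accession names were passed over. Nearest to P2rx1 were F10, the coagulation factor X gene (0.083 log2 units), Cap2, a regulator of actin (0.101), and Mdm1 (0.103). F10 rose from a bone marrow signal of 1245 ± 149 to 3382 ± 1078 and Cap2 from 331 ± 74.6 to 889 ± 236. Nearest to Tbxa2r were Pnck, a calmodulin-dependent kinase gene (0.111), Adgrg2 (0.122) and Tnni3 (0.128), with log2 fold changes of -1.07, -1.10 and -1.03. These likenesses rest on 6 arrays in 2 groups and are given as a description.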

How the data were processed

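RNA of 6 samples was hybridised to Affymetrix mouse arrays. The authors deposited one linear intensity for each probe set and array. The submitters' processing notes name MAS5, with its version not given in the sources used here. The values had been scaled to a mean of 500 on every array after trimming 2% at each end, as measured in the values. MAS5 signals of dim probe sets are noisy. Of 45101 probe sets 64 were controls, and 34945 had exactly 1 gene symbol, 932 several and 9160 none listed. 0 columns were unmapped, and no pair of arrays shared identical values.

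Signals were log2-transformed without offset. Probe sets above the 40th percentile of the mean (a signal of 22.9) were kept, and each gene was tested by its brightest. limma 3.58.1 (R 4.3.3) fitted tissue with a trended prior and 4 residual degrees of freedom, and the same fit was run over all probe sets. Exact permutation of 3 against 3 arrays cannot go below 0.1 and was not used. The control level is the signal below which 95% of values of the 27 bacterial controls that had no spike lay. A group whose mean log2 signal lies below it gives an "at least" fold, taken after lower signals are raised to the level. Group means printed in the text are of linear signals. Tested on simulated data for the same 11645 genes, the fit found 66% of 100 genes set to a 2-fold difference and 89% of 100 set to 4-fold. It called 7 genes that had been left alone. Only these few genes were changed, a far smaller share than the 36.1% called in the data, so the figures do not carry over to the real fit.

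The members and lists were chosen with earlier results of these data known. Named genes were the members, up to 3 called genes per list and direction by adjusted p, the 2 brightest markers per list and the 3 genes nearest in pattern to members changed by at least 1 log2 unit. Synonyms were resolved by a RefSeq gene table. The count of 1 pathway list and 1 of its genes are not reported here. Sequences are RefSeq (GRCm38.p6), and none is shown for Rgs18 and Gng11. Alternatives were other filters, normalizations, an offset, a floor, priors, array weights, a replicate block, other uses of probe sets and leaving out each array. Figures used Python 3.11.15 and matplotlib 3.10.9.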

Additional observations from a re-analysis of the deposited data

How the results depend on the processing

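P2rx1, F2r, Gng11 and Tbxa2r kept direction and call in every one of the 18 alternatives run per gene, though the brighter F2r probe set lost its call in the probe-set fit without the variance trend (0.33, limma adjusted p = 0.0634). Over all member genes 145 of 161 alternative values kept direction and call, 5 newly passed and 11 changed sign; over member probe sets these were 203, 7 and 9 of 223, and 4 lost the call. The count of called genes was 6725 under median centring (5377 higher, 1348 lower), 7237 with every probe set on its own, and 2813 to 4477 with 1 array left out, lowest without bone marrow replicate 3. Of the member probe sets 4 of 9 were called with 1 probe set per gene. With 1 array left out 6 to 9 of 14 were called, for which no share over all probe sets was taken. Member genes called numbered 5 of 9 under median centring and 6 of 9 with array weights, against 6725 and 6005 of all 11645 genes. Signs changed only for uncalled members and Prkacb (0.027 under median centring). Under median centring the median log2 fold change over all genes was 0.38, against 0.04 in the main fit. Without bone marrow replicate 2 or 3, or fetal liver replicate 2, the Rgs18 gene value came from its other probe set. Causes of the changes in sign were otherwise not tested. Rgs18 became 0.24 under median centring (also on its brighter probe set) and 0.0012 with array weights, and its other probe set -0.039 under quantile normalization and, newly called, 0.39 under median centring (limma adjusted p = 0.0331). With 1 array left out, Rgs18 ran from -0.14 to 0.054 (brighter probe set in the probe-set fit -0.21 to 0.054, other -0.013 to 0.14), P2ry12 from -0.14 to 0.34, P2ry1 from -0.13 to 0.19 and Ptger3 from -0.054 to 0.30. F2rl2 was called under median centring (0.68), array weights (0.56) and the mean of probe sets (0.52), and Ptger3 with array weights (0.34, limma adjusted p = 0.0456). P2ry12 was not tested under the 60th percentile filter. With the replicate number as a block 3847 genes and 4 members were called. With each tissue's mean removed, same-numbered arrays correlated at -0.08, 0.07 and -0.11. This gave no sign that the numbers pair the samples, but cannot exclude it. With 3 arrays per tissue, precision is limited by their number, and signals near the control level bear no fold.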
